A study of Mus musculus with 6 samples.

Results

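The genes described here are the nuclear-encoded subunits of the mitochondrial respiratory chain and ATP synthase in mouse fetal liver erythroblasts. They were chosen by gene symbol (Nduf subunits, Sdha to Sdhd, Uqcr genes, Cyc1, Cycs, Cox4 to Cox8 genes and Atp5 genes), without pseudogenes and assembly factors, and had to reach 10 or more counts in 3 or more libraries. Of 17691 genes in the count table, 87 matched by name, 80 were kept and 7 were dropped for low counts. The 80 genes comprised 36 of complex I, 4 of complex II, 9 of complex III, 13 of complex IV, 17 of complex V and Cycs, the mobile electron carrier cytochrome c.

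Fetal liver erythroblasts of C57BL/6J mice, negative for the late erythroid surface marker TER119 when purified, were grown in medium with erythropoietin (Epo). One group was treated with carbon dots (CDs, carbon nanoparticles, here derived from the plant Codonopsis pilosula) at 1 ug/ml for 30 h, and the other was cultured without them. Each group had 3 polyadenylated RNA libraries, numbered 1 to 3, with totals between 17695997 and 20066581 expected counts (read counts per gene that need not be whole, since reads can be shared among genes). Per the labels, all 6 libraries share the strain, the tissue, the TER119-negative gate and Epo, and no allele, age or pooling is given.

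The respiratory chain passes electrons from NADH through complex I (NADH dehydrogenase), or from succinate through complex II (succinate dehydrogenase), to complex III (the cytochrome bc1 complex), cytochrome c and complex IV (cytochrome c oxidase). Complexes I, III and IV pump protons across the inner mitochondrial membrane, and complex V (ATP synthase) uses the gradient to make ATP. Erythroblasts depend on mitochondria also for heme and iron-sulfur cluster synthesis, and they clear the organelles as they mature into red cells. Most subunits are encoded in the nucleus, and only these are described here.

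All 80 genes had a log2 fold change below 0 (CDs over untreated), against 48.1% of the 12283 genes tested, but the differences were small and no gene passed the test. The median log2 fold change was -0.20 over the 80 genes, with values from -0.98 to -0.029, and 0.011 over all genes tested. It was -0.21 in complex I, -0.071 in complex II, -0.21 in complex III, -0.21 in complex IV and -0.20 in complex V, and -0.23 for Cycs. Ndufb7 of complex I and Cox7b of complex IV stood below the other genes, at -0.98 ± 0.22 and -0.81 ± 0.19 (log2 fold change ± SE, n = 3 each). The other 78 genes lay between -0.34 and -0.029.

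**Figure D1:**
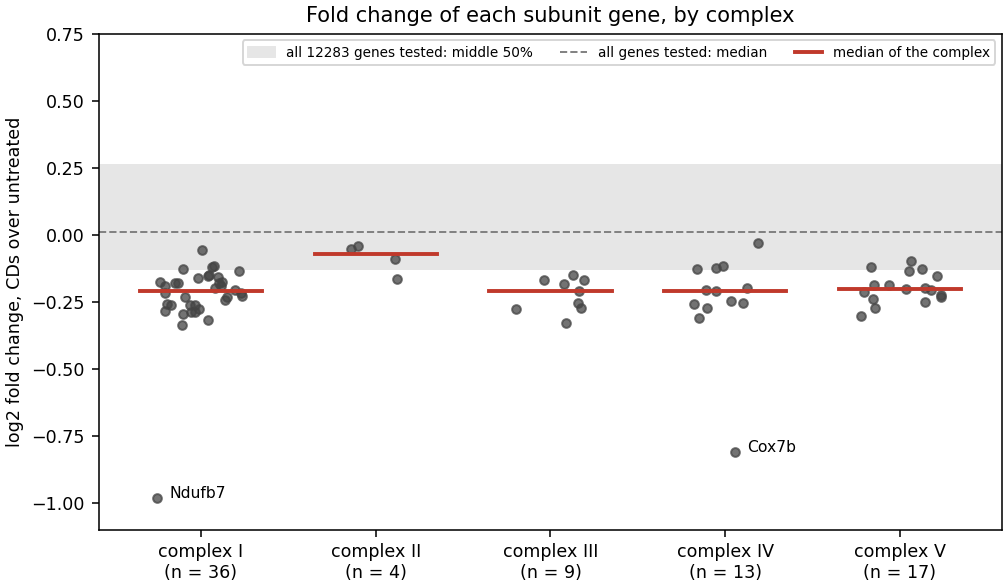
Log2 fold change (CDs over untreated, edgeR) on the vertical axis for each subunit gene, 1 point per gene, grouped by complex I to V on the horizontal axis, with the median of each complex as a bar and the middle 50% of all 12283 genes tested as a grey band. All points lie below 0, complex II lies closest to 0 with a median of -0.071, and Ndufb7 (-0.98) and Cox7b (-0.81) lie apart from the rest.

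In edgeR's quasi-likelihood test, 0 of the 80 genes had an adjusted p under 0.05, as did 0% of all genes tested. The smallest adjusted p of any gene was 0.994. At an unadjusted p under 0.05, 2 of the 80 genes (Ndufb7 and Cox7b) were lower with CDs, against 0.326% of all genes tested. DESeq2, limma-voom and limma on the FPKM values also called 0 of the 80. In CPM (counts scaled to the TMM-adjusted library total) the groups did not overlap for 4 of the 80 genes, all lower with CDs (Ndufb7, Cox7b, Ndufa13 and Sdhb), against 2.34% of all genes tested. Whether the replicates were separate cultures is not stated, so each p-value reflects the spread among these libraries alone, part of which may be technical.

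Within each group the library numbered 3 stood apart. The 80 genes together held 1.17, 1.13 and 0.812% of the counts in the CDs libraries, against 1.31, 1.27 and 0.954% in the untreated libraries. The library numbered 3 was the lowest in both groups, and untreated library 3 lay below CDs libraries 1 and 2. In the CDs group 79 of the 80 genes were lower in library 3 than in the mean of libraries 1 and 2, with a median log2 difference of -0.52, and in the untreated group 78 of 80 were, with a median of -0.45. Over all genes tested these medians were -0.0032 with CDs and -0.0056 untreated. Each list of other mitochondrial genes given below also summed lowest in the libraries numbered 3. Enzymes of the citric acid cycle and pyruvate dehydrogenase summed to 3330, 2904 and 1977 CPM with CDs, against 3519, 3256 and 2310 CPM untreated. In 71 of the 80 genes the difference of untreated library 3 from its group was larger than the log2 fold change between CDs and untreated cells, as it was in 10354 of the 12283 genes tested. Sums of granulocyte, hepatocyte, and mast cell and basophil markers, in contrast, were highest in the libraries numbered 3 of both groups. Those of endothelial and megakaryocyte markers were not highest there in both groups. Macrophage markers were also highest in the libraries numbered 3. They summed to 344, 1399 and 4349 CPM in the CDs libraries, against 150.4, 440.5 and 3511 CPM in the untreated libraries, with 11 of 13 tested and none at 0 in all libraries, and their part in the values of the respiratory chain genes was not tested.

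Libraries of the same number were therefore also compared directly. The numbers were taken as pairs, although a check of correlations could not decide whether they are. The summed counts of the 80 genes were 0.889 times the untreated level in the libraries numbered 1, 0.893 times in those numbered 2 and 0.851 times in those numbered 3. Within these 3 pairs the median log2 ratio of the 80 genes was -0.23, -0.17 and -0.26, and 76 of 80 genes (95%) were lower with CDs in 3 of 3 pairs, against 26.2% of all genes tested. The 4 exceptions were Ndufb4c, Ndufv3, Sdhd and Cox6b2. Of 6324 other genes with at least 100 counts and 5 FPKM in each library, 39.7% were lower in 3 of 3 pairs. Among the 452 of them under 1000 bases and at 25 FPKM or more, 70.4% were. Leaving out CDs library 3 moved the median of the 80 genes to -0.060, with 57 of 80 below 0, and leaving out untreated library 1 moved it to -0.12. Leaving out CDs library 2 moved it to -0.31, and leaving out untreated library 3 to -0.34.

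**Figure D2:**
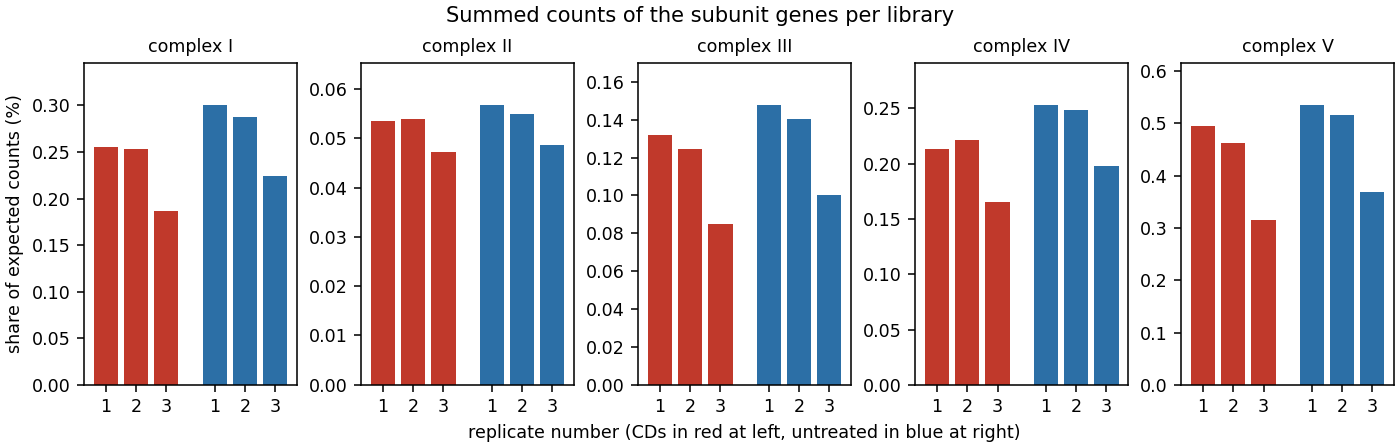
Share of each library's expected counts (%, vertical axes, starting at 0) that fell on the subunit genes of each complex, 1 bar per library, with CDs in red at the left and untreated in blue at the right of each panel and the replicate number on the horizontal axis. The library numbered 3 has the lowest bar in both groups in each of the 5 panels, and each CDs bar is below the untreated bar of its number.

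With the replicate number as a block, a term that compares libraries within their number, edgeR called 1 of the 80 genes at an adjusted p under 0.05 (Cox7b, adjusted p = 0.0452), against 0.0407% of all genes tested, which is 5 genes. At an adjusted p under 0.10 in this fit 21 of the 80 genes (26.2%) were lower with CDs, against 3.13% of all genes tested, and at an unadjusted p under 0.05 there were 58 (72.5%), against 11.9%. The threshold of 0.10 was set after the adjusted p-values had been seen. DESeq2 with the block called 10 of the 80 lower at an adjusted p under 0.05 (12.5%), against 2.08% of all genes tested. These 10 were Ndufb7, Ndufa12, Ndufb9 and Ndufb10 of complex I, Uqcr11 and Uqcrq of complex III, and Cox7b, Cox5b, Cox6a1 and Cox6b1 of complex IV. No gene of the 80 was higher with CDs at any of these thresholds. The shares of all genes tested, here and for each complex below, cover genes of much lower level. The median in untreated cells was 8.32 FPKM over all genes tested and 137 FPKM over the 80. Shares among genes of similar level were not taken at these thresholds. The count of calls depended on the libraries for all genes as well. Without both libraries numbered 1 the edgeR fit with the block called 0 of the 80 and 0% of all genes tested, without those numbered 2 it called 14 of the 80 and 7.16% of all, and without those numbered 3 it called 21 of the 80 and 15.2% of all. Without a block and without both libraries numbered 3, 27 of the 80 had an unadjusted p under 0.05 in edgeR, against 8.02% of all genes tested, and 0 passed after adjustment.

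**Figure D3:**
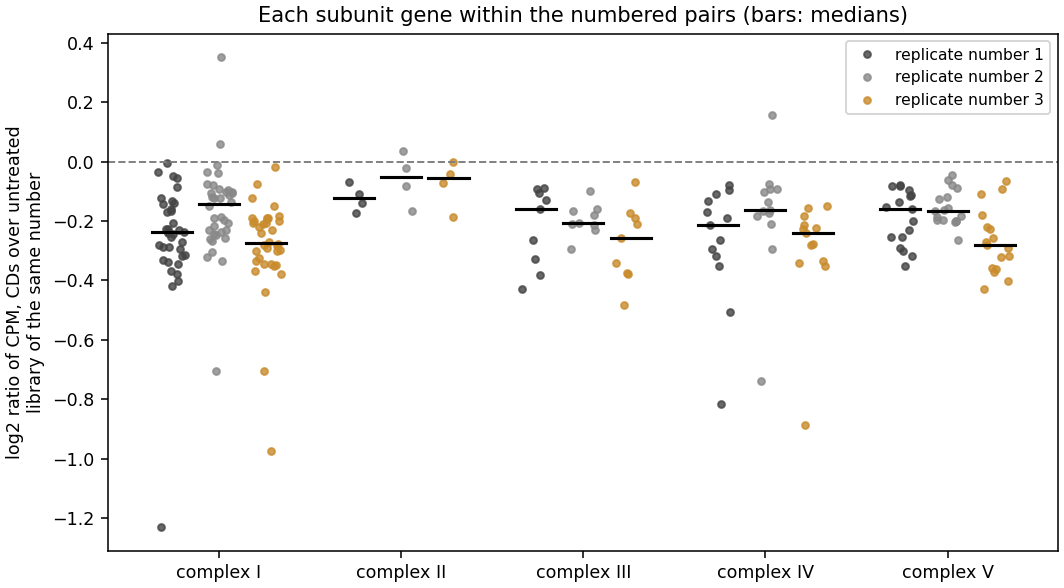
Log2 ratio of CPM, CDs over the untreated library of the same number, on the vertical axis for each subunit gene, with 1 column of points per replicate number within each complex on the horizontal axis and black bars for medians. Nearly all points lie below 0 in each pair (76 of 80 genes in 3 of 3 pairs), and the medians of complex II (-0.12, -0.052 and -0.056) lie closest to 0.

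Upstream sequences were read for the genes from RefSeq (GRCm38.p6), as windows of 300 bases running from 250 bases before to 50 bases after the annotated start. Of the 80 genes 66 matched, with 71 windows in all. The windows of 4 genes are shown: those of Ndufb7 and Cox7b, which had the lowest fold changes, of Uqcr11, which had the next smallest adjusted p under DESeq2 with the block, and of Sdhb, whose groups did not overlap. Capitals mark the letters of 5 motifs searched on both strands, each on its own, and each window is printed on the strand of its gene.
Ndufb7: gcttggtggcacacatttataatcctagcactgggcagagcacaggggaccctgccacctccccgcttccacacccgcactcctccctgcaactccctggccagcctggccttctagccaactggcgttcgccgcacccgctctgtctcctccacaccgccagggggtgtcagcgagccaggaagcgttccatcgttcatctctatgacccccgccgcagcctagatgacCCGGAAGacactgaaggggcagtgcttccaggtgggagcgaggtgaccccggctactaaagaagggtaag
Cox7b: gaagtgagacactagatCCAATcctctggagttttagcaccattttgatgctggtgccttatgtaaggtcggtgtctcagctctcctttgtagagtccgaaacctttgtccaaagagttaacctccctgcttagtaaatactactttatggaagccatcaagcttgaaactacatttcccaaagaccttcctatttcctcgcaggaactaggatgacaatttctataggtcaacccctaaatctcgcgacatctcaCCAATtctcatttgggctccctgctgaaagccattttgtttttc
Uqcr11: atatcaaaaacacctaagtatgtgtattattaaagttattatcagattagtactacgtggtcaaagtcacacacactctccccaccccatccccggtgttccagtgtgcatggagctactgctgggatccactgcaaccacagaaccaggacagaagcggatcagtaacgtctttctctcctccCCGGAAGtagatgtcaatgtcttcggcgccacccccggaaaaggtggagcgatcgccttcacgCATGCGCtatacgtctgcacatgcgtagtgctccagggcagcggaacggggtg
Sdhb: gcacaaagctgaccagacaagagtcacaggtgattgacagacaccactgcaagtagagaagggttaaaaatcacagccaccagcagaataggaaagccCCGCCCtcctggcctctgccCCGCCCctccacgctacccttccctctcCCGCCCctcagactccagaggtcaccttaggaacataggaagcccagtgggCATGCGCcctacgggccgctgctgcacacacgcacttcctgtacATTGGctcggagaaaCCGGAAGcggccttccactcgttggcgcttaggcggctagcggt

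The Ndufb7 window is chr8:83566508-83566807 (plus strand), the Cox7b window chrX:106015450-106015749 (plus strand), the Uqcr11 window chr10:80406772-80407071 (minus strand) and the Sdhb window chr4:140961021-140961320 (plus strand). The motifs were those of nuclear respiratory factor 1 (NRF1, GCGCATG, also as CATGCGC on the other strand), the ETS family that includes GABPA (CCGGAAG), YY1 (AAGATGG), SP1 (GGGCGG, also as CCGCCC) and the CCAAT box (CCAAT, also as ATTGG). These factors are known for binding near respiratory chain genes. The Ndufb7 window held the ETS letters once, and the Cox7b window held none of the first 4 motifs and the CCAAT letters 2 times. Uqcr11 held the NRF1 and ETS letters, and Sdhb held those of NRF1, ETS, SP1 and the CCAAT box.

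Among the 71 windows, 19.7% held the NRF1 letters, against 3.91% of all 32851 RefSeq windows of the same length. The ETS letters stood in 22.5% against 8.86%, and the YY1 letters in 15.5% against 6.34%. The SP1 letters stood in 40.8% against 35.7%, and the CCAAT letters in 42.3% against 37.4%. At least 1 of the NRF1, ETS and YY1 motifs stood in 46.5% of the windows of respiratory chain genes and 17.5% of all windows. The 33 genes with any of these 3 motifs had a median log2 fold change of -0.23, with 32 lower in 3 of 3 pairs, and the 33 matched genes without them had -0.19, with 31. A match describes letters in a window and was not tested as a binding site.

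Complex I takes electrons from NADH through its core subunits and holds many accessory subunits around them. Of the 36 genes, 34 were lower with CDs in 3 of 3 pairs, against 26.2% of all genes tested. In edgeR with the block 26 were lower at an unadjusted p under 0.05, against 11.9% of all genes tested. At an adjusted p under 0.10 there, 11 were lower, against 3.13% of all genes tested. The 7 core genes had a median log2 fold change of -0.18 and the 29 accessory genes -0.22. With any 1 library removed, the complex median lay between -0.33 (untreated library 3) and -0.071 (CDs library 3). The 36 genes together held 0.255, 0.253 and 0.187% of the counts in the CDs libraries, against 0.300, 0.287 and 0.224% in the untreated libraries.

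Ndufs1, the large iron-sulfur core subunit, measured 156, 128 and 79.0 CPM in the CDs libraries, against 159.5, 153 and 91.5 CPM in the untreated libraries. Its log2 fold change was -0.15 ± 0.33, and both libraries numbered 3 were far below the others. Ndufv1, the core subunit that binds NADH, measured 159.6, 131 and 87.7 CPM in the CDs libraries, against 160.3, 155 and 100.2 CPM in the untreated libraries. Its log2 fold change was -0.14 ± 0.29, and the groups overlapped. Without CDs library 3 both were above 0, at 0.078 for Ndufs1 and 0.069 for Ndufv1.

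Ndufb7 (chromosome 8, 83566758 to 83571623, no overlapping annotated gene) encodes an accessory subunit of the membrane arm. It measured 93.2, 102 and 73.3 CPM in the CDs libraries, against 219, 167 and 145 CPM in the untreated libraries. The highest CDs library was below the lowest untreated library, and the 3 pair ratios were -1.23, -0.71 and -0.98 in log2. Its log2 fold change of -0.98 ± 0.22 had an unadjusted p of 0.0048 and an adjusted p of 0.994 in edgeR. With the block it was -0.97 ± 0.11, with an adjusted p of 0.0916 in edgeR and 8.9e-10 in DESeq2. Its counts and FPKM disagree between libraries, as given after the complexes.

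Ndufa13, a small accessory subunit also known as GRIM-19, measured 68.3, 78.1 and 67.8 CPM in the CDs libraries, against 82.6, 83.8 and 82.3 CPM in the untreated libraries. The 3 CDs libraries were below the 3 untreated ones, the log2 fold change was -0.22 ± 0.11, and library 3 was close to its group. The gene overlaps Tssk6, a testis-specific kinase, in the annotation. Ndufa3, a membrane-bound accessory subunit, measured 33.8, 42.2 and 32.1 CPM in the CDs libraries, against 44.7, 45.6 and 40.7 CPM in the untreated libraries, with overlap only between CDs library 2 and untreated library 3. Ndufa7, an accessory subunit of the peripheral arm, measured 50.5, 50.6 and 43.1 CPM in the CDs libraries, against 64.3, 58.4 and 49.8 CPM in the untreated libraries, with CDs libraries 1 and 2 just above untreated library 3. Their log2 fold changes were -0.28 ± 0.15 for Ndufa3 and -0.26 ± 0.14 for Ndufa7.

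Ndufb4, an accessory subunit of the membrane arm, had the lowest fold change of complex I after Ndufb7, at -0.34 ± 0.32. It measured 60.5, 63.9 and 38.1 CPM in the CDs libraries, against 81.0, 80.7 and 43.8 CPM in the untreated libraries, so that untreated library 3 was below CDs libraries 1 and 2. Ndufa12, which sits on the peripheral arm, measured 67.5, 64.8 and 41.8 CPM in the CDs libraries, against 87.4, 76.6 and 53.1 CPM in the untreated libraries and had -0.32 ± 0.27. With the block both had an adjusted p of 0.0916 in edgeR. Ndufb4c, a close copy of Ndufb4 whose counts were not whole numbers in any library, had expected counts of 276, 309 and 201 in the CDs libraries, against 317, 236 and 329 in the untreated libraries. It was higher with CDs in the pair numbered 2, at 0.35 in log2. Reads that fit both copies cannot be assigned with certainty, and expected counts divide such reads between genes. The values of both copies are therefore uncertain.

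The genes of complex I closest to 0 were Ndufa9, at -0.06 ± 0.22, and Ndufb4c and Ndufv3, both at -0.12. Ndufa9, an accessory subunit near the quinone site, measured 118, 108 and 78.7 CPM in the CDs libraries, against 122, 111 and 83.1 CPM in the untreated libraries. Its value was above 0 without CDs library 3 (0.097) and without untreated library 1 (0.064). Ndufv3, a small subunit of the NADH-binding module, measured 33.4, 42.9 and 33.4 CPM in the CDs libraries, against 39.8, 41.1 and 38.2 CPM in the untreated libraries, and CDs library 2 was above all untreated libraries.

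Complex II, which is also an enzyme of the citric acid cycle, stood closest to the untreated level. Its 4 genes held 0.0536, 0.0538 and 0.0472% of the counts in the CDs libraries, against 0.0567, 0.0550 and 0.0486% in the untreated libraries, and the ratios of CDs to untreated within the pairs were 0.944, 0.978 and 0.972. The medians of its log2 ratios in the pairs were -0.12, -0.052 and -0.056, against -0.23, -0.17 and -0.26 over the 80 genes. At an unadjusted p under 0.05 in edgeR with the block, 1 of the 4 genes was lower with CDs (Sdhb). At an adjusted p under 0.10 there, 0 were. Over all genes tested 11.9% and 3.13% were lower at these thresholds. The difference between complex II and the other complexes was not tested, and without CDs library 3 its median log2 fold change was 0.022.

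Sdha, the flavoprotein that oxidises succinate, measured 254, 250.1 and 198 CPM in the CDs libraries, against 266, 254 and 204 CPM in the untreated libraries. Sdhb, the iron-sulfur subunit, measured 86.8, 86.0 and 88.8 CPM in the CDs libraries, against 95.6, 96.5 and 101 CPM in the untreated libraries. Sdha had overlapping groups and a log2 fold change of -0.04 ± 0.17, while all 3 CDs values of Sdhb lay below all 3 untreated values, at -0.16 ± 0.09. With the block the adjusted p of Sdhb was 0.129 in edgeR. Sdhb was not lower in either library numbered 3. Its log2 difference of library 3 from libraries 1 and 2 was 0.039 with CDs and 0.072 untreated.

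The membrane anchors Sdhc and Sdhd bind heme and pass electrons to ubiquinone. Sdhc measured 114, 114 and 97.4 CPM in the CDs libraries, against 123, 121 and 102 CPM in the untreated libraries, and Sdhd measured 88.1, 91.5 and 69.3 CPM in the CDs libraries, against 99.3, 89.3 and 69.4 CPM in the untreated libraries. Their log2 fold changes were -0.09 ± 0.13 for Sdhc and -0.05 ± 0.19 for Sdhd, and the groups overlapped in both. In the pairs Sdhd had log2 ratios of -0.17, 0.035 and -0.0029, and its log2 fold change was above 0 without CDs library 3 (0.062), without untreated library 1 (0.062) and without both libraries numbered 1 (0.014).

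Complex III carries electrons from ubiquinol to cytochrome c. All 9 genes were lower with CDs in 3 of 3 pairs, against 26.2% of all genes tested. At an unadjusted p under 0.05 in edgeR with the block 8 were lower, against 11.9% of all genes tested. The 5 small subunits had a median log2 fold change of -0.27, the core proteins Uqcrc1 and Uqcrc2 had -0.17 and -0.15, and the catalytic subunits Cyc1 and Uqcrfs1 had -0.21 and -0.17. The 9 genes held 0.132, 0.125 and 0.0849% of the counts in the CDs libraries, against 0.148, 0.141 and 0.1001% in the untreated libraries. Without CDs library 3 the median of the complex was 0.0056.

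Uqcr11, a small accessory subunit, had the lowest value of the complex, at -0.33 ± 0.32. It measured 87.8, 82.4 and 48.0 CPM in the CDs libraries, against 110.4, 101 and 62.4 CPM in the untreated libraries. The library numbered 3 was the lowest in both groups, and untreated library 3 was below CDs libraries 1 and 2. With the block its log2 fold change was -0.33 ± 0.0574, with an adjusted p of 0.0916 in edgeR and 0.0144 in DESeq2.

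Uqcrq, which contacts cytochrome b, measured 119, 114 and 75.6 CPM in the CDs libraries, against 143, 133 and 95.8 CPM in the untreated libraries. Uqcrb, another small subunit, measured 94.5, 103 and 78.1 CPM in the CDs libraries, against 127, 119.5 and 81.9 CPM in the untreated libraries. Their log2 fold changes were -0.27 ± 0.25 for Uqcrq and -0.26 ± 0.21 for Uqcrb, with untreated library 3 below CDs libraries 1 and 2 in both genes. Uqcrq overlaps Gdf9, a gene of the oocyte. Cyc1, the heme-bearing cytochrome c1, measured 199.9, 183 and 111 CPM in the CDs libraries, against 215, 211 and 144 CPM in the untreated libraries, with a log2 fold change of -0.21 ± 0.29 and 0.0096 without CDs library 3.

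Cycs, the soluble cytochrome c that links complexes III and IV and is also known for its role in apoptosis, measured 169.6, 158 and 119 CPM in the CDs libraries, against 203, 182 and 139 CPM in the untreated libraries. Untreated library 3 was below CDs libraries 1 and 2. Its log2 fold change was -0.23 ± 0.21 without and -0.23 ± 0.0552 with the block, where its adjusted p was 0.0969 in edgeR and 0.0704 in DESeq2.

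Complex IV passes electrons to oxygen, and its nuclear subunits surround a core encoded in mitochondrial DNA. Of its 13 genes 12 were lower with CDs in 3 of 3 pairs, against 26.2% of all genes tested. At an unadjusted p under 0.05 in edgeR with the block 9 were lower, against 11.9% of all genes tested. With any 1 library removed, the complex median lay between -0.35 (untreated library 3) and -0.082 (CDs library 3). The 13 genes held 0.213, 0.221 and 0.165% of the counts in the CDs libraries, against 0.253, 0.248 and 0.198% in the untreated libraries. Each CDs library was below the untreated library of its number, while CDs libraries 1 and 2 were above untreated library 3.

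Cox7b (chromosome X, 106015700 to 106022450, no overlapping annotated gene), a small subunit of the oxidase, measured 104, 109.8 and 77.0 CPM in the CDs libraries, against 183, 183 and 143 CPM in the untreated libraries. The highest CDs library was below the lowest untreated library, and the pair ratios were -0.82, -0.74 and -0.89 in log2. Its log2 fold change was -0.81 ± 0.19, with an unadjusted p of 0.0067 and an adjusted p of 0.994 in edgeR, and -0.82 ± 0.0603 with the block, with an adjusted p of 0.0452 in edgeR and 1.4e-13 in DESeq2. As for Ndufb7, its counts and FPKM disagree between libraries.

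Cox4i1, the regulatory subunit in its common form, measured 273, 266 and 201 CPM in the CDs libraries, against 312, 300.3 and 243 CPM in the untreated libraries. Cox6a1, the non-muscle form of subunit VIa, measured 303, 322 and 228 CPM in the CDs libraries, against 364, 362 and 292 CPM in the untreated libraries, and Cox7a2, the non-muscle form of subunit VIIa, measured 91.3, 101 and 66.5 CPM in the CDs libraries, against 117, 107 and 83.9 CPM in the untreated libraries. In Cox4i1, Cox6a1 and Cox7a2 the groups overlapped only through the libraries numbered 3 of untreated cells. The log2 fold changes were -0.21 ± 0.18 for Cox4i1, -0.25 ± 0.18 for Cox6a1 and -0.25 ± 0.21 for Cox7a2. Cox6b1, a subunit of the intermembrane side, measured 158, 161 and 124 CPM in the CDs libraries, against 194, 198 and 144 CPM in the untreated libraries. Cox5b, a subunit of the matrix side, measured 174, 192 and 139.8 CPM in the CDs libraries, against 218, 218 and 169.9 CPM in the untreated libraries. Their log2 fold changes were -0.27 ± 0.19 for Cox6b1 and -0.26 ± 0.18 for Cox5b, with untreated library 3 below CDs libraries 1 and 2 in both genes. With the block in DESeq2 the adjusted p was 0.0342 for Cox6a1, 0.0355 for Cox6b1 and 0.0376 for Cox5b.

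Cox7c measured 193, 221 and 146 CPM in the CDs libraries, against 274, 247 and 172 CPM in the untreated libraries and had the lowest log2 fold change of complex IV after Cox7b, at -0.31 ± 0.24. Ndufa4, named as a complex I gene but now placed in complex IV, measured 155, 149.6 and 105 CPM in the CDs libraries, against 174, 173 and 123 CPM in the untreated libraries, at -0.20 ± 0.22. Cox7a2l is known as a factor of supercomplexes of complexes III and IV, and its function in this strain was not examined. It measured 130.0, 136 and 110.5 CPM in the CDs libraries, against 143, 145 and 122 CPM in the untreated libraries. Its log2 fold change was -0.12 ± 0.14. In all 3 genes untreated library 3 was below CDs libraries 1 and 2.

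Several subunits have isoforms known from other tissues. The muscle forms Cox6a2 and Cox7a1 and the lung form Cox4i2 had at most 10 counts in any library, and Ndufa4l2, known as a target of hypoxia-inducible factor, had 6, 3 and 0 counts in the CDs libraries, against 16, 7 and 1 in the untreated libraries. Cox8b, Cox8c and Ndufa11b had at most 2.35 expected counts. Cox6b2, known as the testis form of subunit VIb, was in contrast expressed, at 119, 129 and 68.3 CPM in the CDs libraries, against 127, 116 and 80.1 CPM in the untreated libraries. Per length, in FPKM (a level scaled by transcript length and depth), it averaged 214 ± 59.7 FPKM with CDs and 216 ± 44.3 FPKM in untreated cells (SD, n = 3 each). Cox6b1 averaged 309.7 ± 34.9 FPKM with CDs and 368 ± 53.9 FPKM in untreated cells on the same scale. Cox6b2 had the log2 fold change closest to 0 of the 80 genes, at -0.03 ± 0.30, with pair ratios of -0.095, 0.16 and -0.23 in log2.

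Complex V holds the catalytic F1 head, the c ring in the membrane and the stalks that join them. All 17 genes were lower with CDs in 3 of 3 pairs, against 26.2% of all genes tested. At an unadjusted p under 0.05 in edgeR with the block 13 were lower, against 11.9% of all genes tested. At an adjusted p under 0.10 there 2 were lower (Atp5j and Atp5k), against 3.13%. In DESeq2 with the block 0 were lower at an adjusted p under 0.05, against 2.08%. With any 1 library removed, the complex median lay between -0.35 (untreated library 3) and -0.037 (CDs library 3). The 17 genes held 0.496, 0.462 and 0.315% of the counts in the CDs libraries, against 0.535, 0.517 and 0.368% in the untreated libraries. Per length, Atp5b had the highest level of the 80 genes, at 752 ± 220.1 FPKM with CDs and 852 ± 191 FPKM in untreated cells (SD, n = 3 each), and Atp5s, which codes for a coupling factor, had the lowest, at 6.84 ± 1.75 FPKM with CDs and 8.12 ± 1.61 FPKM in untreated cells. Its expected counts of 234, 290 and 173 in the CDs libraries, against 333, 302 and 229 in the untreated libraries, were also the lowest on average of the genes kept, while of those dropped Ndufa4l2, Cox6a2 and Cox7a1 each reached 10 counts in 1 library.

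The F1 subunit genes Atp5a1 and Atp5b encode the alpha and beta subunits, of which beta carries the catalytic sites. Atp5a1 measured 948, 849 and 566 CPM in the CDs libraries, against 1004, 974 and 604 CPM in the untreated libraries, and Atp5b measured 1769.7, 1568 and 913 CPM in the CDs libraries, against 1918, 1798 and 1173 CPM in the untreated libraries. Both libraries numbered 3 were far below the others in each gene, and the log2 fold changes were -0.13 ± 0.29 for Atp5a1 and -0.20 ± 0.33 for Atp5b. Without CDs library 3 they were 0.062 for Atp5a1 and 0.034 for Atp5b.

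The c ring is encoded by 3 genes for the same mature protein. Atp5g1 measured 192, 181 and 94.6 CPM in the CDs libraries, against 225, 203 and 118 CPM in the untreated libraries. Atp5g2 measured 112, 117 and 93.5 CPM in the CDs libraries, against 125, 122 and 97.9 CPM in the untreated libraries, and Atp5g3 measured 177, 163 and 109 CPM in the CDs libraries, against 187, 173 and 132 CPM in the untreated libraries. Their log2 fold changes were -0.23 ± 0.37 for Atp5g1, -0.10 ± 0.16 for Atp5g2 and -0.13 ± 0.24 for Atp5g3, and differences among them were not tested. Without CDs library 3, Atp5g1 was at 0.033 and Atp5g3 at 0.051.

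Atp5k, the small e subunit of the membrane part, had the lowest log2 fold change of complex V, at -0.30 ± 0.26, and measured 45.6, 44.6 and 28.2 CPM in the CDs libraries, against 56.0, 53.6 and 36.6 CPM in the untreated libraries. Atp5j and Atp5h encode subunits of the peripheral stalk. Atp5j measured 99.7, 106 and 71.7 CPM in the CDs libraries, against 119, 119 and 92.1 CPM in the untreated libraries, and Atp5h measured 157, 164 and 119.8 CPM in the CDs libraries, against 194, 189 and 136 CPM in the untreated libraries. Their log2 fold changes were -0.25 ± 0.20 for Atp5j and -0.23 ± 0.20 for Atp5h, and untreated library 3 was below CDs libraries 1 and 2 in both genes. Atp5j overlaps Gabpa on the chromosome. In all, the spans of 24 of the 80 genes overlap another annotated gene. No strand-marking step is named for the libraries, so reads from a stretch that such genes share may not be separable, and overlap of exons was not examined. For 15 of the 80 genes at least 1 count was not whole, which occurs where reads are shared among genes.

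The authors also deposited FPKM, and for most subunit genes counts and FPKM carried the same information. Dividing a count by its FPKM and by the library total gives a length per gene, here called the implied length. It need not equal the length of an annotated transcript. Over 6403 genes with 100 or more counts and 5 or more FPKM in each library, among them 79 subunit genes, the log2 implied length varied over libraries with a median RMS of 0.0039, and with 0.0010 over the 79. The 99th percentile was 0.0868. Ndufb7, at 0.296, and Cox7b, at 0.203, were the 2 subunit genes above it, and the next was Ndufv3 at 0.041.

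The implied length of Ndufb7 was 509, 509 and 508 bases in the CDs libraries, against 589.7, 387 and 768 bases in the untreated libraries. That of Cox7b was 988, 989 and 987 bases in the CDs libraries, against 777, 779 and 1147 bases in the untreated libraries. In both genes the 3 CDs libraries gave nearly 1 length, while the untreated libraries gave lengths above and below it. Of the 6403 genes these were the only 2 whose CDs lengths lay within 1% of each other and whose untreated lengths were over 1.2-fold apart, and 0 genes showed the reverse. These limits were chosen after the values of both genes had been seen.

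In FPKM, Ndufb7 measured 181, 199 and 150.4 FPKM in the CDs libraries, against 361, 423 and 192 FPKM in the untreated libraries, so that CDs library 2 was above untreated library 3. Cox7b measured 104, 110.4 and 81.3 FPKM in the CDs libraries, against 229, 231 and 127 FPKM in the untreated libraries, without overlap. On the log2(FPKM + 1) scale limma gave -0.81 ± 0.32 for Ndufb7 and -0.94 ± 0.28 for Cox7b, each with an adjusted p of 0.982. RefSeq lists 1 transcript for each gene. GENCODE lists a coding transcript of 623 bases and a retained-intron transcript of 4435 bases for Ndufb7, and for Cox7b a coding transcript of 1001 bases with others of 180 and 526 bases. The implied length of Cox7b in untreated library 3, 1147 bases, was above all of its listed transcripts. Transcript-level values were not used here, and the part of transcript assignment in both differences was not tested. Over the other 78 genes the median log2 fold change was -0.20, as over all 80.

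**Figure D4:**
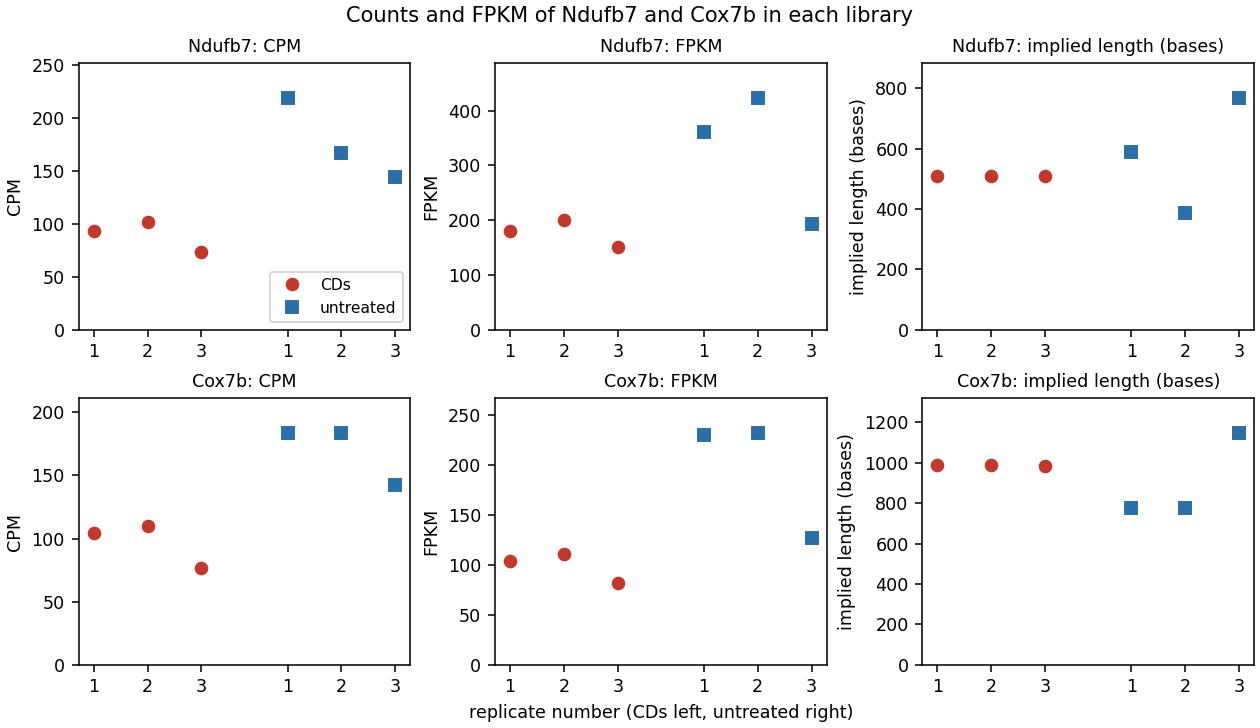
CPM, FPKM and implied length in bases (count divided by FPKM and library total) of Ndufb7 (top) and Cox7b (bottom) in each library, 1 point per library, with the CDs libraries at the left as red circles, the untreated libraries at the right as blue squares and the replicate number on the horizontal axis. The implied lengths of the 3 CDs libraries are nearly equal in each gene (508 to 509 bases in Ndufb7), while those of the untreated libraries are not (387 to 768 bases in Ndufb7).

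Most subunit genes are short and abundant, and other short, abundant genes had a similar median. Across the 77 compared subunit genes without Ndufb7 and Cox7b, the log2 fold change correlated with implied length at a Spearman rho of 0.42, and across the 6324 other genes compared at 0.34. These are correlations across genes that share the same 6 libraries, and genes are not independent replicates. The median log2 fold change of the 6324 other genes was -0.058, and 4092 of them were below 0. Among the 452 other genes under 1000 bases and at 25 FPKM or more, the median log2 fold change was -0.19, 385 were below 0 and 70.4% were lower in 3 of 3 pairs. Among the 56 subunit genes in the same range the median was -0.23 and 94.6% were lower in 3 of 3 pairs. How far length and level account for the shift of the 80 genes was not tested.

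**Figure D5:**
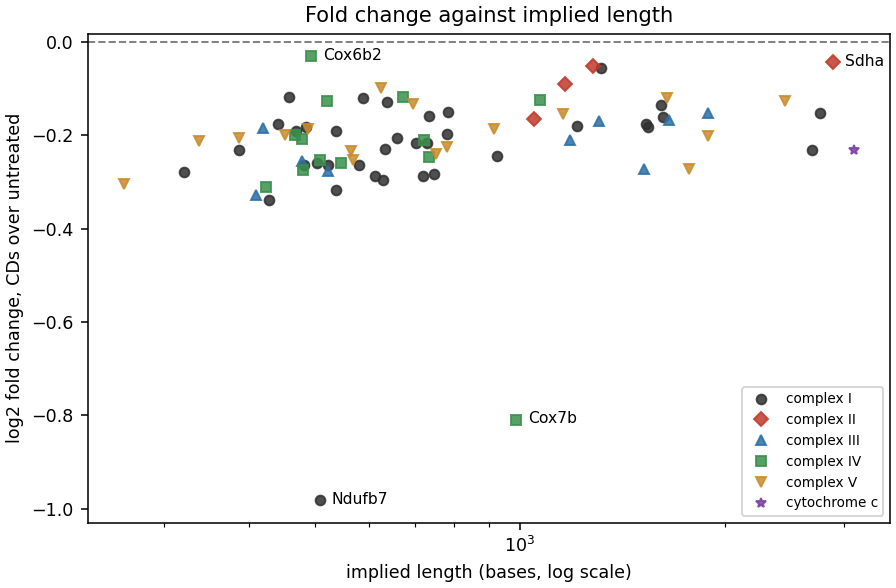
Log2 fold change (CDs over untreated, edgeR) on the vertical axis against the implied length in bases on the horizontal axis (log scale), 1 point per subunit gene with a symbol for each complex. Apart from Ndufb7 and Cox7b, shorter genes tend to lie lower (Spearman rho of 0.42 over 77 genes). Among the longest genes, Sdha lies near 0, while Cycs and Ndufa11 lie at -0.23.

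Genes with related mitochondrial functions, taken from 4 lists, were also mostly below 0. Over all genes tested, 48.1% were below 0 and 26.2% were lower in 3 of 3 pairs. Of 49 tested assembly factors of the complexes, 44 were below 0, with a median log2 fold change of -0.15, and 29 were lower in 3 of 3 pairs. Cox14, an assembly factor of complex IV, had -0.25 ± 0.13, and Coa6, which helps deliver copper to complex IV, had -0.31 ± 0.18. Of 18 enzymes of the citric acid cycle and pyruvate dehydrogenase, 17 were below 0 (median -0.16) and 14 were lower in 3 of 3 pairs. Idh3g, a subunit of isocitrate dehydrogenase, had -0.19 ± 0.21, and Sucla2, a subunit of succinyl-CoA ligase, had -0.16 ± 0.18. In edgeR 0 genes of the 4 lists passed an adjusted p of 0.05 with or without the block.

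Of 23 genes of mitochondrial membranes and protein import, 22 were below 0 (median -0.16) and 20 were lower in 3 of 3 pairs. Tomm7 of the outer membrane translocase had -0.30 ± 0.19, and Timm10, a chaperone of the intermembrane space, had -0.33 ± 0.32. Of 13 tested regulators of mitochondrial biogenesis, 8 were below 0 (median -0.065), against 48.1% of all genes tested. In 3 of 3 pairs 3 of the 13 were lower, against 26.2% of all genes tested. Esrra, a nuclear receptor that activates respiratory genes, measured 10.1, 10.9 and 17.7 CPM in the CDs libraries, against 7.96, 8.86 and 14.6 CPM in the untreated libraries, a log2 fold change of 0.30 ± 0.35 with an adjusted p of 0.994 in edgeR. Tfb1m, a mitochondrial ribosomal RNA methyltransferase, had -0.17 ± 0.23. At an adjusted p under 0.10 in edgeR with the block, 3 of 49 assembly factors and 1 of 18 cycle enzymes were lower. So were 3 of 23 membrane and import genes and 0 of 13 regulators, against 3.13% of all genes tested.

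The naming pattern left out 3 known components, whose values lay in the lower part of the range of the 80 genes. The median of the 80 genes was -0.20 and their lower quartile -0.26. Ndufab1, the acyl carrier protein of complex I, had a log2 fold change of -0.32 ± 0.36. Atpif1, the inhibitor of ATP synthase, had -0.30 ± 0.27, and Usmg5, a small subunit of ATP synthase, had -0.32 ± 0.27. With the block the adjusted p in edgeR was 0.0916 for Ndufab1, 0.0939 for Atpif1 and 0.0916 for Usmg5.

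Marker lists of the labelled cell type and of others were summed in each library. The 12 erythroblast markers were all detected and summed to between 112312 and 139461 CPM with CDs and between 120131 and 134732 CPM in untreated cells. Of these 12 genes, 9 had a log2 fold change below 0, with medians of -0.039, -0.084 and -0.12 in the pairs numbered 1, 2 and 3. All 11 tested macrophage markers had a log2 fold change above 0, as did all 10 granulocyte markers (383 to 2142 CPM with CDs and 269.9 to 2079 CPM untreated), all 5 tested of 8 endothelial markers (335 to 486 CPM with CDs and 155 to 198 CPM untreated) and all 8 hepatocyte markers (346 to 671 CPM with CDs and 222 to 499.5 CPM untreated). Of 8 megakaryocyte markers 7 were above 0 (95.4 to 142 CPM with CDs and 103 to 107 CPM untreated). Of 6 tested mast cell and basophil markers 1 was above 0 (48.8 to 163 CPM with CDs and 36.0 to 236 CPM untreated). In edgeR 0 marker genes had an adjusted p under 0.05. DESeq2 with the block called 9 of 11 macrophage, 2 of 10 granulocyte, 3 of 5 endothelial, 3 of 8 hepatocyte and 1 of 8 megakaryocyte markers higher with CDs, against 7.69% of all genes tested, and 0 of the mast cell and basophil or erythroblast markers in either direction. In bulk samples fewer cells of a type and less RNA per cell cannot be told apart, and the part of cell composition in the values of the respiratory chain genes was not tested.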

How the data were processed

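Expected counts and FPKM per gene were taken from 2 tables the authors deposited, for 3 CDs and 3 untreated libraries. The authors deposited expected counts, of which 30.1% were not whole, and these were rounded for count tests. The second deposited table names no unit, and FPKM was read from its values. Tools listed in the submitters' processing notes, without their roles, are RSEM 1.2.12, HISAT2 2.0.4, DESeq2 1.4.5 and Bowtie2 2.2.5, with the build GRCm38.p6. Coordinates and upstream windows come from RefSeq on GRCm38.p6 (1-based).

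Totals ran from 17695997 to 20066581 counts per library. In R 4.3.3, edgeR 4.0.16 compared the groups by its robust quasi-likelihood test for the 12283 genes that filterByExpr kept. Library sizes were TMM-scaled, the model held treatment alone, and p-values were adjusted by Benjamini and Hochberg over all genes tested at a threshold of 0.05. CPM uses TMM-scaled totals, and pair ratios use CPM + 0.5. For edgeR values, SE is the absolute log2 fold change divided by the square root of the quasi-likelihood F statistic. Alternatives were DESeq2 1.42.0, limma 3.58.1 (voom, and trend on log2(FPKM + 1)), other scalings and filters, a replicate block, and libraries left out. On simulated data with known changes, built so that the pairs differed as in these libraries, the fits with the block called most changed genes. The edgeR and FPKM fits without the block called none. Because the pair differences were built in, the simulation cannot decide whether the replicate numbers pair these libraries. Detection of differences as small as the median of the subunit genes was not tested.

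Deviations from group means in same-numbered libraries correlated at 0.948, 0.493 and 0.960 for numbers 1, 2 and 3 over all genes. Over the 80 genes the correlations were 0.716, 0.21 and 0.759, and the numbers were taken to pair the libraries. Correlations between libraries of different numbers were not computed. Deviations within a group cancel out, and library 3 stood apart in both groups. Such correlations can therefore arise without pairing, and the check cannot decide whether the numbers pair the libraries. The common biological coefficient of variation was 0.485 without and 0.112 with the block.

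Members and lists (7 of cell type markers, 4 of mitochondrial functions) were chosen with earlier results of these data known. Values per library are given for the 3 members per complex with the smallest unadjusted p and for members whose counts and FPKM disagree. They are also given for the most abundant members and a list of well-known subunits. Cox6b2, Ndufb4, Ndufa12, Ndufa9 and Ndufv3 fall outside these rules and were added after their values had been seen. These added genes also count among the 37 named genes followed under the alternatives. Counts of Ndufb4c and Atp5s are given outside the rules as well. For each further list the 2 genes with the smallest unadjusted p are named.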

Additional observations from a re-analysis of the deposited data

How the results depend on the processing

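Without a block, 0 of the 80 genes were called by edgeR under every scaling, filter and library left out, and by DESeq2, limma-voom and limma on FPKM. At an unadjusted p under 0.05, 2 were in edgeR on all libraries, 1 to 3 under these alternatives, and 27 of 80 (970 of 12089 genes tested) without both libraries numbered 3. With the replicate block edgeR called 1, limma-voom 1 and DESeq2 10. Chosen after seeing the data, the edgeR fit with the replicate block without both libraries of one number called 0 of 80 and 0 of 12542 genes tested (number 1), 14 and 899 of 12559 (number 2), and 21 and 1835 of 12089 (number 3). Leaving out 1 library at a time without a block, the median log2 fold change ran from -0.16 to 0.022 in complex II, from -0.38 to 0.0056 in complex III, -0.33 to -0.071 in I, -0.35 to -0.082 in IV and -0.35 to -0.037 in V. Signs were followed for the 37 named genes, and those of them that changed ran from -0.33 to 0.062 (Atp5a1), -0.40 to 0.034 (Atp5b), -0.46 to 0.033 (Atp5g1), -0.28 to 0.051 (Atp5g3), -0.22 to 0.20 (Cox6b2), -0.38 to 0.0096 (Cyc1), -0.20 to 0.097 (Ndufa9), -0.38 to 0.078 (Ndufs1), -0.35 to 0.069 (Ndufv1), -0.15 to 0.063 (Sdha) and -0.19 to 0.062 (Sdhd). Complexes II and III and these genes were above 0 without CDs library 3 (57 of all 80 genes stayed below 0), the lowest library of its group, whose removal leaves the untreated library of its number unmatched. With both libraries of one number left out, Cox6b2 was 0.0082 (number 1), 0.009 (number 3) and 0.0099 (number 3, with the replicate block), and Sdhd was 0.014 (number 1) and 0.011 (number 1, with the replicate block). The causes were not tested. Of 851 values of 37 named genes under 23 alternatives, 795 kept their direction and side of the threshold, 35 newly passed it and 21 changed sign. The median of all genes tested stayed between -0.0062 and 0.035 under every scaling and table. With 3 libraries per group, differences of this size were within the spread of unpaired libraries.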
